A study of Mus musculus with 24 samples.

Results

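The 9 genes described here are classical markers of macrophages stimulated with interleukin 4 (IL-4): Retnla, Chil3, Clec7a, Mrc1, Clec10a, Mgl2, Pdcd1lg2, Mmp12 and Egr2. They were taken by gene symbol from a table of 24557 genes, and all 9 had a row in it. The study used bone marrow-derived macrophages (BMDMs), which are bone marrow cells grown for 7 days with 10 ng/ml of the growth factor M-CSF, to ask whether the leukotriene B4 receptor BLT2, encoded by Ltb4r2, shapes macrophage states. RNA was sequenced from 24 libraries in 6 groups of 4, labelled as biological replicates. These were Ltb4r2-/- M2, WT M2, Ltb4r2-/- M1, WT M1, Ltb4r2-/- M0 and WT M0. M2 cells received 10 ng/ml IL-4 for 16 h, M1 cells received 10 ng/ml lipopolysaccharide (LPS) with 25 ng/ml interferon gamma (IFN-γ) for 16 h, and M0 cells were left unpolarized. The knockout is global and not limited to macrophages, the WT mice were littermates, and the age of the bone marrow donors is not given in the sources used here.

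IL-4 binds a receptor of the IL-4 receptor alpha chain (Il4ra) with the common gamma chain (Il2rg) or with Il13ra1, and the receptor's kinases phosphorylate the transcription factor STAT6. STAT6 then enters the nucleus and switches on genes for secreted lectins, sugar-binding receptors, enzymes and further transcription factors, among them Egr2. LPS and IFN-γ act through other receptors.

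The markers were shallowly covered. Library totals were 427825 to 729580 counts, with 5933 to 7315 genes detected per library, and the 9 genes together had 1511 counts over all 24 libraries, 18 to 439 each. Genes with an exon overlapped by an exon of a gene on the opposite strand were 24.1% of the placed genes and held 90.3% of their counts, while Actb, an abundant transcript of all cells, had only 30 to 133 counts per library. The libraries were strand-specific, and which strand was counted is not given in the sources used here, so a level or a count of 0 describes this table and may not measure a gene's own transcript. No exon of 8 of the 9 markers had such an overlap, and Mmp12 overlapped Mmp1b over 157 bp. The part of these facts in the marker levels was not tested. Ltb4r2 itself had 0 counts in all 12 WT libraries and at most 5 in the Ltb4r2-/- libraries, with counts in 5 of 12, so it does not check the genotype labels. Between 10 and 13 of 20 macrophage identity genes reached a mean of 10 counts in each group, and no gene of the neutrophil, eosinophil, T and NK cell, B cell, mast cell or stromal lists did. Summed over the 20, the level was 1120 to 1227 CPM in Ltb4r2-/- M2 against 2303 to 2632 in Ltb4r2-/- M0, and 866 to 1567 CPM in WT M2 against 2382 to 2724 in WT M0. Of 15 tested, 2 rose and 5 fell in Ltb4r2-/- M2 over M0, where 16.9% of all genes tested rose and 15.0% fell, and 1 rose and 4 fell in WT cells, where 15.2% rose and 11.8% fell. Apoe, Cx3cr1, Lyz2 and Mpeg1 fell and Lgals3 rose in both. The part of this shift in the marker levels was not tested.

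STAT6 dimers prefer the palindrome TTCNNNNGAA, with 4 bases between its arms, and other STATs prefer TTCNNNGAA. Both motifs read the same on either strand and cannot share the same pair of arms. RefSeq start-site windows (GRCm38.p6) were matched by symbol for 8 of the 9 markers, in 14 windows, and the 250 bases before each start site were searched. TTCNNNNGAA was found upstream of Retnla, Clec7a and Pdcd1lg2, against 5.85% of 32851 windows of the same length, and TTCNNNGAA upstream of Chil3, against 7.02%. By window the markers had 4 of 14 with TTCNNNNGAA, of which 2 are overlapping windows of Clec7a, and 1 of 14 with TTCNNNGAA. The windows of these 4 genes, which hold a match, are shown. Retnla, Clec7a and Chil3 rose in M2. Pdcd1lg2, with the motif of Retnla and Clec7a, did not pass the count filter and was not called in M2 over M0 without it. Neither motif was in the windows searched for Mrc1, Mgl2, Mmp12 and Egr2, of which Mmp12 and Egr2 also rose in M2 in both genotypes. Capitals mark the match, whose first base lay at -145 from the start site in Retnla, -131 in Clec7a, -82 in Pdcd1lg2 and -172 in Chil3. A match is only a run of letters and was not tested as a binding site. They lie at chr16:48842359-48842608 (plus strand, Retnla), chr6:129472780-129473029 (minus strand, Clec7a), chr19:29410669-29410918 (plus strand, Pdcd1lg2) and chr3:106167565-106167814 (minus strand, Chil3).
Retnla: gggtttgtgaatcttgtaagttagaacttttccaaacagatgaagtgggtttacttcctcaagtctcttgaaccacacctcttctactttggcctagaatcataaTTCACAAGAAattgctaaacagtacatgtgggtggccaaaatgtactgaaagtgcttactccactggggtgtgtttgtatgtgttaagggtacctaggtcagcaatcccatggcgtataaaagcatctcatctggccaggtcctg
Clec7a: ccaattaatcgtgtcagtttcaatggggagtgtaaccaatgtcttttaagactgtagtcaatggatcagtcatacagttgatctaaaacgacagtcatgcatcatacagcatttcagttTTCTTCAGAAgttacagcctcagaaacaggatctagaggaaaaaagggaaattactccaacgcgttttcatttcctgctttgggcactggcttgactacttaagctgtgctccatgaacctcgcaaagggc
Pdcd1lg2: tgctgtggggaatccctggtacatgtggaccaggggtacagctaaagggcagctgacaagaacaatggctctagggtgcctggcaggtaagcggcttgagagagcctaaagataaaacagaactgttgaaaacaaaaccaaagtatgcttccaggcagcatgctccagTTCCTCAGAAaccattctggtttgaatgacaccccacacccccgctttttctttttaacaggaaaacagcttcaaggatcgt
Chil3: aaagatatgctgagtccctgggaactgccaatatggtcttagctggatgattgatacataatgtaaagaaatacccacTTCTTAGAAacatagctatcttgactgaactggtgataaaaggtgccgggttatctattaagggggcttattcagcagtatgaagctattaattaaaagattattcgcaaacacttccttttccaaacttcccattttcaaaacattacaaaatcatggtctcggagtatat

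Of the 9 markers, 6 had enough counts to be tested by edgeR in a fit of all 24 libraries: Retnla, Chil3, Clec7a, Mrc1, Mmp12 and Egr2. Clec10a, Mgl2 and Pdcd1lg2 did not. A marker could enter the test through its M2 libraries alone, so the counts over tested markers do not describe all 9. Over unpolarized cells, all 6 rose in Ltb4r2-/- M2 and 5 rose in WT M2, all but Mrc1, at an adjusted p under 0.05. Over all 3047 genes tested, 16.9% rose in Ltb4r2-/- M2 and 15.2% in WT M2. Over M1 cells all 6 rose in M2 in each genotype, where 26.5% of all genes rose in Ltb4r2-/- cells and 26.3% in WT cells, or 44.1% and 43.4% for Ltb4r2-/- and WT cells with libraries scaled by total count alone. With markers at 0 in M0 set to their lower bound (4 in Ltb4r2-/- and 3 in WT cells, against 3 counts over the group), the median log2 fold change of the 6 in M2 over M0 was at least 4.43 in Ltb4r2-/- cells. In WT cells it was 3.65, the midpoint of the bound of Egr2 and the fitted value of Mmp12, and so is no bound. The fitted median, which for such genes depends on the prior count, was 6.76 in Ltb4r2-/- and 4.90 in WT cells, beside 0.0 for all genes tested in either genotype. All 4 M2 libraries lay above all 4 M0 libraries in both genotypes for Retnla, Chil3, Clec7a, Mmp12 and Egr2, a pattern that 16.8% of all genes showed in Ltb4r2-/- and 14.2% in WT cells.

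**Figure D1:**
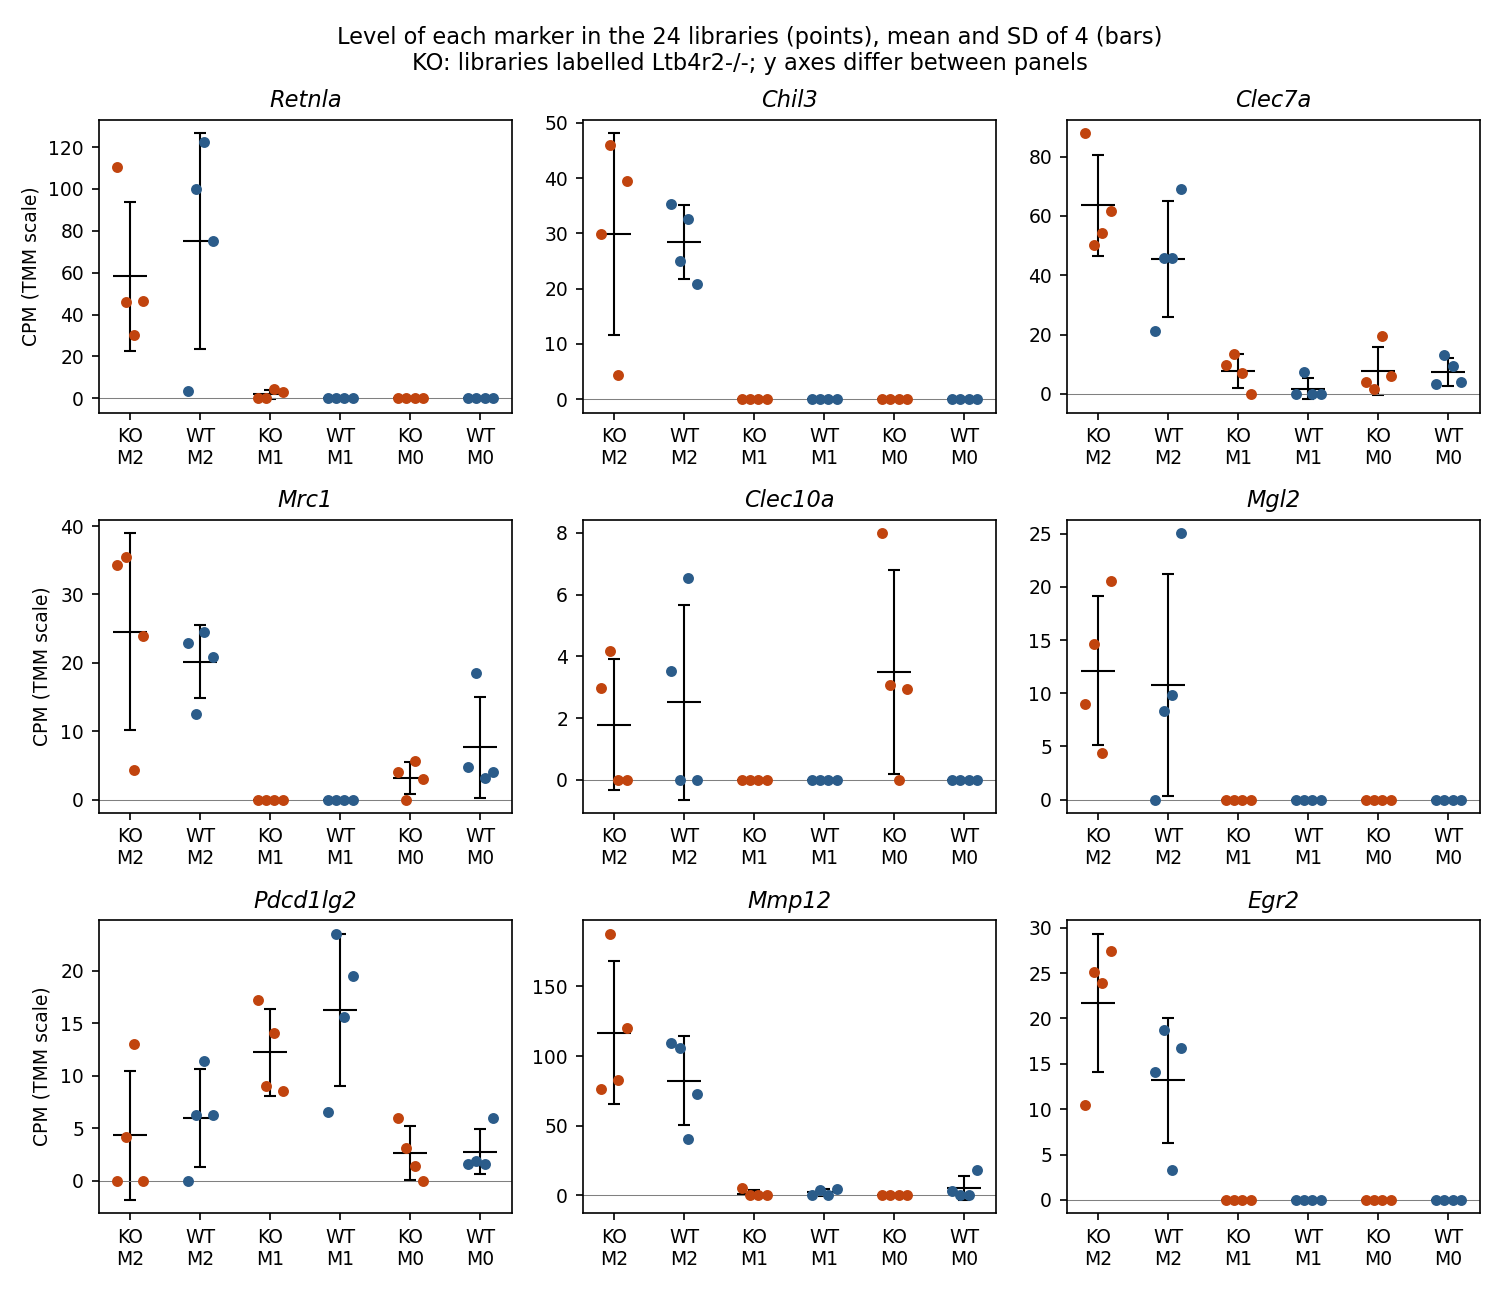
Level of each of the 9 markers in CPM (y axis, counts scaled to library size, scale differs by panel) in the 6 groups (x axis), with 1 point per library and bars for the mean and SD of 4. Chil3, Egr2 and Mgl2 have points above 0 in M2 alone, Pdcd1lg2 is highest in M1, and Clec10a reaches at most 7.99 CPM.

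Retnla encodes RELMα (FIZZ1), a secreted resistin-like protein, at chr16:48842551-48844461 on the plus strand (GRCm38). Its counts were 74, 22, 14 and 27 in the 4 Ltb4r2-/- M2 libraries and 2, 48, 75 and 36 in the WT M2 libraries. It had 3 counts in all in Ltb4r2-/- M1 and 0 in WT M1 and in both M0 groups. Every M2 library therefore lay above every M0 library, although WT M2 replicate 1 was far below its 3 companions. With 3 counts over the whole group taken as the lower limit, Retnla was at least 53.1-fold higher in Ltb4r2-/- M2 and at least 57.9-fold higher in WT M2 than in M0 of the same genotype. Without Ltb4r2-/- M2 replicate 1 the Ltb4r2-/- bound was 35.2. The adjusted p from edgeR was 8.63e-06 in Ltb4r2-/- and 6.58e-06 in WT cells.

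Chil3, which encodes the secreted chitinase-like lectin Ym1 (chr3:106147554-106167564, minus strand), was seen in M2 libraries and in no other. It had 20, 22, 2 and 23 counts in Ltb4r2-/- M2 and 20, 12, 20 and 10 counts in WT M2, against 0 in all 16 M1 and M0 libraries. Ltb4r2-/- M2 replicate 3 was the low one here. Chil3 was at least 26.0-fold higher in Ltb4r2-/- M2 and at least 22.3-fold higher in WT M2 than in M0 (edgeR adjusted p = 2.43e-05 and 5.47e-05 for the Ltb4r2-/- and WT contrast). Its close paralog Chil4 (Ym2) and Retnlg, a paralog of Retnla, had 0 counts in every library, and reads shared between Chil3 and Chil4 could not be resolved from gene counts. None of the 9 other members of the chitinase-like and resistin-like families passed the count filter.

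Clec7a encodes Dectin-1, the receptor for fungal β-glucans (chr6:129461591-129472779, minus strand). Unlike Retnla and Chil3, it had counts in unpolarized cells. M2 libraries held 59, 24, 25 and 36 counts in Ltb4r2-/- and 12, 22, 28 and 33 in WT cells. M0 libraries held 2, 1, 14 and 4 counts in Ltb4r2-/- and 2, 7, 6 and 2 in WT cells. On the CPM scale, that is counts scaled to library size, Clec7a was above its M0 range in each M2 library, averaging 63.5 ± 17.0 CPM in Ltb4r2-/- M2 against 7.77 ± 8.13 in Ltb4r2-/- M0, and 45.4 ± 19.5 CPM in WT M2 against 7.37 ± 4.63 in WT M0 (SD, n = 4 each). The log2 fold change was 2.95 (SE 0.57, edgeR adjusted p = 1.06e-04) in Ltb4r2-/- and 2.58 (SE 0.60, edgeR adjusted p = 0.00124) in WT cells. Without Ltb4r2-/- M0 replicate 3, the library with 14 counts, the Ltb4r2-/- value was 3.99. In M1 it had 4, 6, 3 and 0 counts in Ltb4r2-/- and 0, 4, 0 and 0 in WT libraries, and neither M1 group passed the test against M0. The WT comparison passed without WT M1 replicate 2 (edgeR adjusted p = 0.00993).

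Mrc1 encodes the mannose receptor CD206 (chr2:14229392-14332057, plus strand). Its M2 libraries held 23, 17, 2 and 14 counts in Ltb4r2-/- and 13, 6, 15 and 10 in WT cells. M1 libraries had 0 counts throughout, and M0 libraries had 2, 0, 4 and 2 counts in Ltb4r2-/- and 3, 10, 2 and 2 in WT cells. M2 and M0 overlapped in both genotypes, because Ltb4r2-/- M2 replicate 3 was low and WT M0 replicate 2 was high. The log2 fold change of M2 over M0 was 2.89 (SE 0.73, edgeR adjusted p = 0.00259) in Ltb4r2-/- cells and 1.41 (SE 0.67, edgeR adjusted p = 0.126) in WT cells. Without WT M0 replicate 2, the WT value was 2.28 with an adjusted p of 0.0359. The difference between the genotypes' responses was 1.48 (SE 1.00, edgeR adjusted p = 1).

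Mrc1 was also the marker that fell in M1 over M0, by this test in both genotypes, where 25.7% of all genes fell in Ltb4r2-/- and 24.3% in WT cells. With total-count scaling 45.0% of all genes fell in Ltb4r2-/- and 44.6% in WT cells. It was at least 1.70-fold lower in Ltb4r2-/- M1 than in M0 (edgeR adjusted p = 0.0491) and at least 4.44-fold lower in WT M1 than in M0 (edgeR adjusted p = 0.00412), or at least 2.38-fold with an adjusted p of 0.0233 without WT M0 replicate 2. The Ltb4r2-/- call rested on 8 counts in M0 and was lost on leaving out any of 7 of the 8 libraries in turn, all but M0 replicate 2.

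Mmp12, the macrophage elastase that degrades elastin (chr9:7344381-7369499, plus strand), had the most counts of the 9. M2 libraries held 51, 90, 38 and 70 counts in Ltb4r2-/- and 62, 51, 25 and 35 in WT cells. M0 libraries held 0 in all 4 Ltb4r2-/- replicates and 2, 0, 0 and 9 counts in WT. Every M2 library lay above every M0 library of its genotype. Mmp12 was at least 96.5-fold higher in Ltb4r2-/- M2 than in M0 (edgeR adjusted p = 1.06e-08), and rose in WT M2 with a log2 fold change of 4.01 (SE 0.63, edgeR adjusted p = 9.27e-06). The WT value was 5.93 without WT M0 replicate 4, the library with 9 counts.

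Egr2 encodes a zinc-finger transcription factor that acts downstream of STAT6 (chr10:67535475-67542188, plus strand). Its counts were 7, 12, 11 and 16 in Ltb4r2-/- M2 and 8, 9, 2 and 8 in WT M2, and 0 in all 16 M1 and M0 libraries. Every M2 library held at least 2 counts, the fewest being in WT M2 replicate 3. Egr2 was at least 17.8-fold higher in Ltb4r2-/- M2 and at least 9.71-fold higher in WT M2 than in M0 (edgeR adjusted p = 6.88e-05 and 7.80e-04 for the Ltb4r2-/- and WT contrast).

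Mgl2 and Clec10a are neighbouring, closely related genes for galactose-type lectins (CD301b and CD301a) on chromosome 11. Mgl2 (chr11:70130329-70137550, plus strand) had 6, 7, 2 and 12 counts in Ltb4r2-/- M2 and 0, 4, 6 and 12 in WT M2, against 0 in all other groups. It did not pass the count filter, and in the edgeR fit without a filter it rose over M0 in both genotypes, with an adjusted p of 0.00198 in Ltb4r2-/- and 0.00618 in WT cells. DESeq2 gave an adjusted p of 0.0333 in Ltb4r2-/- cells and none in WT cells, where its own filter removed the gene. The exact permutation test gave p = 0.0286 in Ltb4r2-/- and 0.143 in WT cells. In that fit 3.36% of 13709 genes rose in Ltb4r2-/- M2 and 2.47% in WT M2. Mgl2 was at least 10.5-fold higher in Ltb4r2-/- M2 and at least 7.91-fold higher in WT M2 than in M0, a bound that was 4.63 without WT M2 replicate 4. Clec10a (chr11:70156197-70170834, plus strand) had 18 counts in all, namely 2, 2, 0 and 0 in Ltb4r2-/- M2, 2, 0, 4 and 0 in WT M2, and 4, 2, 0 and 2 in Ltb4r2-/- M0. It had 0 counts in WT M0 and in both M1 groups. A change of Clec10a with IL-4 was not detectable at this depth, and the counting could not separate reads that the 2 paralogs share.

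Pdcd1lg2, which encodes the PD-1 ligand PD-L2 (chr19:29410919-29471161, plus strand), had its highest mean level in M1. Its counts were 0, 2, 6 and 0 in Ltb4r2-/- M2 and 0, 3, 7 and 3 in WT M2. M1 libraries held 7, 4, 6 and 3 counts in Ltb4r2-/- and 3, 13, 6 and 8 in WT, and M0 libraries 3, 2, 1 and 0 in Ltb4r2-/- and 1, 1, 1 and 3 in WT. On the CPM scale all M1 libraries lay above all M0 libraries of their genotype, with 12.2 ± 4.15 CPM in Ltb4r2-/- M1 against 2.61 ± 2.57 in M0, and 16.3 ± 7.29 CPM in WT M1 against 2.74 ± 2.14 in M0 (SD, n = 4). An exact two-sided permutation test gave p = 0.0286 in each genotype, the smallest p that 4 against 4 libraries allow, and 24.4% of all genes in Ltb4r2-/- and 24.6% in WT cells had every M1 library above every M0 library. Adjusted over all genes in the unfiltered edgeR fit, p was 0.144 in Ltb4r2-/- and 0.0626 in WT cells. Means in M2 lay above those in M0, at 4.31 CPM in Ltb4r2-/- M2 and 5.98 CPM in WT M2, and M2 did not pass against M0 by the exact permutation test (p = 0.8 in Ltb4r2-/- and 0.314 in WT cells). Cd274, the gene for the other PD-1 ligand PD-L1, next to it on chromosome 19, rose in M1 over M0 with a log2 fold change of 6.85 (SE 0.56, edgeR adjusted p = 2.07e-12) in Ltb4r2-/- and 6.34 (SE 0.53, edgeR adjusted p = 3.68e-12) in WT cells, and did not pass in M2. Its exons overlap AC119228.1 on the other strand over 511 bp.

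Set per kilobase of exon, the mean level in M2 was highest for Retnla in this table, in which the strand counted is not known. The length was that of all annotated exons of a gene merged, 599 bp for Retnla and 7237 bp for Mmp12. Where a gene has several transcripts, this length can exceed that of each of them, which lowers its level per kb. The order of the markers per kb therefore depends on this choice, and other lengths were not tried. In CPM without this scaling, Mmp12 lay above Retnla in some M2 libraries and below it in others. Per kb, Retnla was the highest in 7 of the 8 M2 libraries. In WT M2 replicate 1, at 5.89 CPM per kb, it lay below Chil3, Mmp12 and Clec7a. It averaged 97.2 ± 59.2 CPM per kb in Ltb4r2-/- M2 and 125.6 ± 86.0 in WT M2 (SD, n = 4 each). Clec7a, Chil3 and Mmp12 followed with 24.1 ± 6.43, 18.3 ± 11.2 and 16.1 ± 7.10 CPM per kb in Ltb4r2-/- M2 and 17.2 ± 7.39, 17.4 ± 4.09 and 11.4 ± 4.44 in WT M2, and their ranges of 1 SD overlapped. Egr2, Mgl2, Mrc1, Pdcd1lg2 and Clec10a lay below, at 6.39 ± 2.25 CPM per kb or less in Ltb4r2-/- M2 and 5.15 ± 4.99 or less in WT M2, again with overlapping spreads between neighbours in the order.

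**Figure D2:**
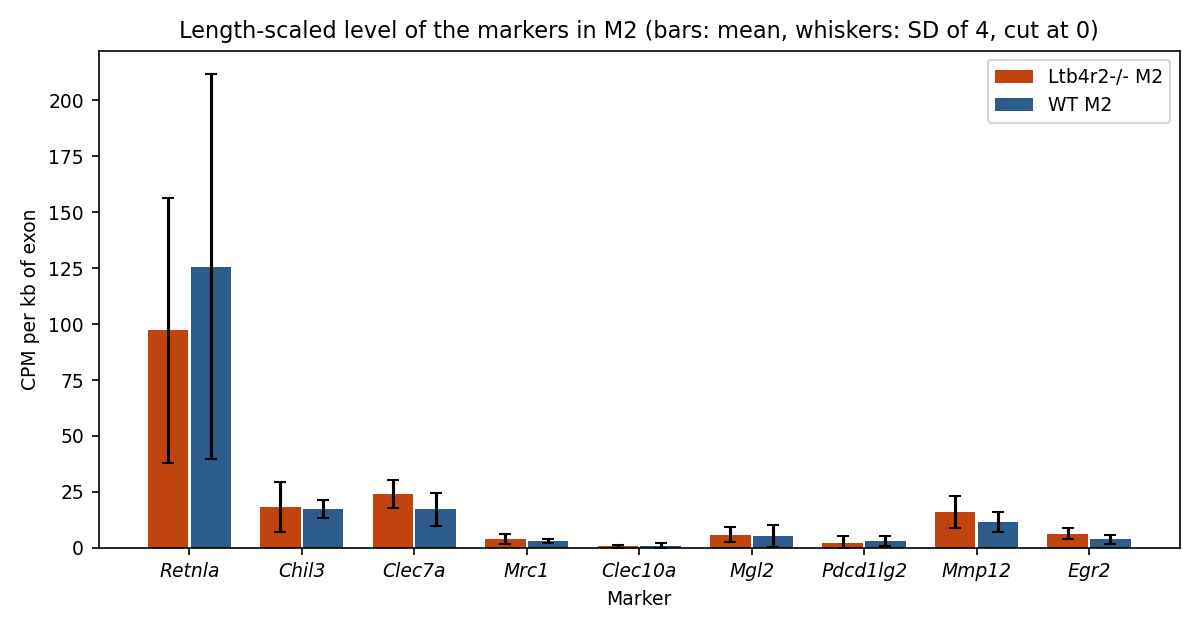
Mean level of the 9 markers in M2 in CPM per kilobase of exon (y axis), with whiskers of 1 SD of 4 libraries cut at 0, for Ltb4r2-/- M2 and WT M2 (colours). The mean of Retnla stands above the others at 97.2 and 125.6 CPM per kb in Ltb4r2-/- and WT cells, with the widest spread.

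The 6 tested markers were not all lowest in the same M2 library. Ltb4r2-/- M2 replicate 3 was the lowest of the 8 M2 libraries for both Chil3 and Mrc1, yet it was not the lowest for the other 4. On the scale of log2(CPM + 10), it was also below the mean of its genotype for Retnla (-0.63), Mmp12 (-0.37) and Clec7a (-0.17). For Egr2 it was above that mean (0.14). It had the lowest library total, 427825 counts. WT M2 replicate 1 was the lowest for Retnla and Clec7a, and WT M2 replicate 3 was the lowest for Mmp12 and Egr2 while it was the highest for Retnla. Summed over the 9 markers, the level was 218 to 414 CPM in Ltb4r2-/- M2 and 210 to 322 CPM in WT M2, against 11.4 to 32.0 in Ltb4r2-/- M1, 6.50 to 34.4 in WT M1, 7.64 to 26.7 in Ltb4r2-/- M0 and 12.9 to 33.4 in WT M0. The sum in every M2 library thus exceeded that in every M1 and M0 library, although the share of each marker in it differed from library to library. The lowest values of Retnla, Chil3, Mrc1 and Egr2 were 2 counts each, and the part of counting error in these differences was not tested. Fewer responding cells and less RNA per cell cannot be told apart in such bulk samples.

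**Figure D3:**
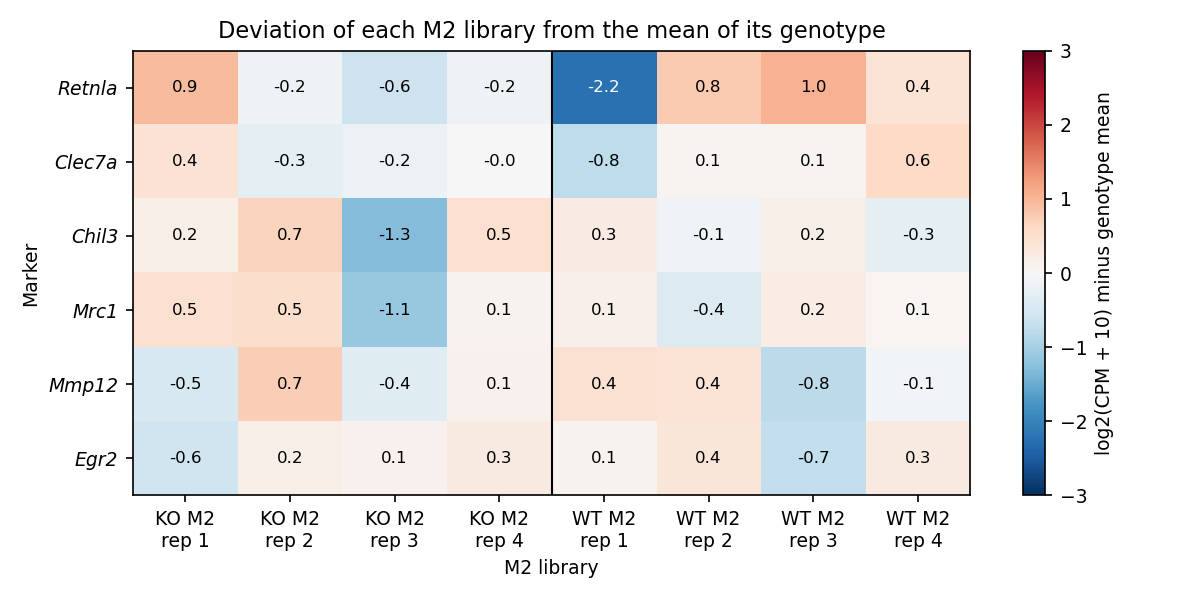
Deviation of each M2 library (columns) from the mean of its genotype for the 6 tested markers (rows), as log2(CPM + 10), with red above and blue below the mean. The deepest cell is Retnla in WT M2 replicate 1, and Chil3 and Mrc1 are both low in Ltb4r2-/- M2 replicate 3.

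The genotype comparison asked whether loss of BLT2 altered these markers within a state. In M2, 5 markers passed the filter of that fit and none was called, while 0.19% of the 2110 genes tested were. No gene of the 5 had an unadjusted p under 0.05 in that edgeR fit, and none was called by DESeq2. Clec7a had a log2 fold change of Ltb4r2-/- over WT of 0.52 (SE 0.34), Mmp12 of 0.51 (SE 0.33), Mrc1 of 0.30 (SE 0.49), Chil3 of 0.08 (SE 0.48) and Retnla of -0.33 (SE 0.57), each with an edgeR adjusted p of 0.9987. In the edgeR fit without a filter, Egr2 had a value of 0.72 (SE 0.55) and Pdcd1lg2 of -0.57 (SE 1.02), and Mmp12 had an unadjusted p of 0.0391 (adjusted p = 0.744). All 9 markers overlapped between the genotypes in M2. The share of all genes that overlapped was not counted, so this overlap does not set the markers apart. No marker passed the filter of the genotype fit in M1 or in M0.

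**Figure D4:**
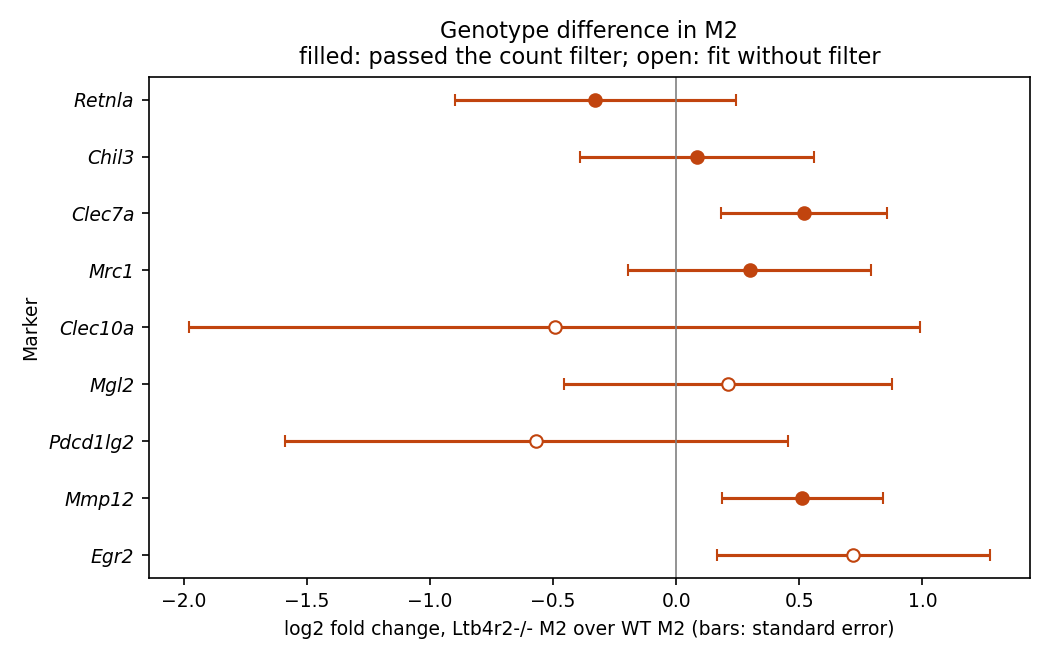
Log2 fold change of Ltb4r2-/- M2 over WT M2 (x axis) with its standard error for the 9 markers (rows), filled where the marker passed the count filter and open where it comes from the fit without a filter. Values lie on both sides of 0, between Egr2 at 0.72 and Pdcd1lg2 at -0.57, both from the fit without a filter.

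No marker was called for a response to IL-4 or to LPS and IFN-γ that differed between genotypes, where 0.0328% of all genes were in each test of the difference. The test could not call a difference for a marker at 0 counts in both genotypes of a state compared. For IL-4 these were Retnla, Chil3 and Egr2, at 0 in both M0 groups (edgeR unadjusted p = 0.9997, 0.9998 and 0.9996). For LPS and IFN-γ they were Chil3 and Egr2, at 0 in all groups compared, Retnla in M0 and Mrc1 in M1. Of the 6 tested, 1 had an unadjusted p under 0.05 in edgeR for IL-4 and 0 for LPS and IFN-γ, and DESeq2 called 0 in both. Mmp12 came nearest, with a difference of 4.93 on the log2 scale (SE 1.58, unadjusted p = 0.00389, edgeR adjusted p = 0.9405), and its adjusted p over the alternatives was 0.0596 without a filter to 1 by DESeq2. It set Ltb4r2-/- M0, with 0 counts in 4 libraries, against WT M0, with 2, 0, 0 and 9 counts, and was 3.03 with an unadjusted p of 0.0840 without WT M0 replicate 4. M0 levels of Mmp12 overlapped between genotypes (exact permutation p = 0.429).

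Other genes of the IL-4 pathway were measured beside the markers. Of 13 genes of the IL-4 receptor and JAK-STAT list, 3 were tested, and Stat6 alone rose in M2 over M0, with a log2 fold change of 0.71 (SE 0.20, edgeR adjusted p = 0.00696) in Ltb4r2-/- and 0.63 (SE 0.20, edgeR adjusted p = 0.0193) in WT cells, where 16.9% of all genes rose in Ltb4r2-/- and 15.2% in WT cells. Its exons overlap those of Nab2 on the other strand over 40 bp. The receptor genes were scarce in M2. Il4ra had 5 and 7 counts over the 4 libraries of Ltb4r2-/- M2 and WT M2 and Il13ra1 had 0 in both. Il2rg did not pass in M2 and rose in M1, with a log2 fold change over M0 of 5.01 (SE 0.82) in Ltb4r2-/- and 3.38 (SE 0.68) in WT cells (edgeR adjusted p = 3.94e-06 and 8.63e-05 in the Ltb4r2-/- and WT contrast).

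Of 28 other IL-4 target genes in the table, 9 were tested. In M2 over M0, 4 rose and 1 fell in Ltb4r2-/- cells, where 16.9% of all genes rose and 15.0% fell, and 5 rose in WT cells, where 15.2% rose and 11.8% fell. Arg1, arginase 1, rose with a log2 fold change of 2.71 (SE 0.55) in Ltb4r2-/- and 2.52 (SE 0.55) in WT cells. Its mean level was 33.2 ± 12.5 CPM in Ltb4r2-/- M2 against 5.09 ± 3.57 in M0, and 33.2 ± 12.2 CPM in WT M2 against 5.52 ± 2.71 in M0 (SD, n = 4). Slc7a2, a transporter that brings arginine into the cell, also rose in M2 (edgeR adjusted p = 1.38e-05 in Ltb4r2-/- and 5.71e-05 in WT cells), and its exons overlap Gm26584 on the other strand over 635 bp. Unlike the 6 tested markers it rose in M1 as well, where it averaged 44.7 ± 6.83 CPM in Ltb4r2-/- and 34.0 ± 7.51 in WT cells, against 0.0 and 0.388 ± 0.776 in Ltb4r2-/- and WT M0. Fn1, fibronectin, rose in M2 by 2.71 (SE 0.86) in Ltb4r2-/- and 2.46 (SE 0.92) in WT cells on the log2 scale, and its exons overlap Apol7d on the other strand over 292 bp. Atp6v0d2, a subunit of the vacuolar proton pump, rose in both genotypes too. Il4i1, an amino acid oxidase, was the gene that fell in Ltb4r2-/- M2 (log2 fold change -1.50, SE 0.58, edgeR adjusted p = 0.0469), with a value of -0.04 (SE 0.60) in WT M2, and 3505 of its 4080 exonic bp overlap Atf5 and Tbc1d17 on the other strand. The difference between the genotypes was not called. Klf4, a transcription factor, rose in WT M2 by 2.25 (SE 0.61) and had a value of 0.90 (SE 0.54, edgeR adjusted p = 0.210) in Ltb4r2-/- M2, a difference that was not called.

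Of 21 other C-type lectin receptors, 3 were tested. Clec4e (Mincle) and Clec4n (Dectin-2) fell in M2 over M0 in both genotypes, where 15.0% of all genes fell in Ltb4r2-/- and 11.8% in WT cells. Clec4n had a log2 fold change of -1.61 (SE 0.48, edgeR adjusted p = 0.00820) in Ltb4r2-/- and -1.50 (SE 0.51, edgeR adjusted p = 0.0268) in WT cells, and Clec4e had 0 counts in all M2 libraries. Clec9a rose in WT M2 (log2 fold change 1.31, SE 0.49, edgeR adjusted p = 0.0456) and had a value of -0.19 (SE 0.45) in Ltb4r2-/- M2, and the difference of -1.50 (SE 0.66) was not called (edgeR adjusted p = 1). Of 15 other metalloproteinases and inhibitors, 2 were tested, and Mmp2, a gelatinase, fell in M2 by 0.71 (SE 0.16) in Ltb4r2-/- and 0.51 (SE 0.16) in WT cells on the log2 scale. Among 15 M1 marker genes, 9 were tested and none rose in M2, while all 9 rose in M1 over M0 in each genotype, where 27.1% of all genes rose in Ltb4r2-/- and 26.9% in WT cells, or 16.6% and 15.6% for Ltb4r2-/- and WT cells with total-count scaling. A gene could enter the test through its M1 libraries alone, so this count does not describe all 15. Gbp5, an interferon-induced GTPase, fell in WT M2 (log2 fold change -2.74, SE 0.78, edgeR adjusted p = 0.00798) and had a value of -0.09 (SE 0.74, edgeR adjusted p = 0.947) in Ltb4r2-/- M2. The difference of 2.65 (SE 1.12) was not called (edgeR adjusted p = 1).

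The genes whose levels over the 24 libraries were most like the mean of the 6 tested markers were Gm7457 (Pearson r = 0.979), Itgax (0.960), Tctn1 (0.958), Ino80dos (0.953) and Slc13a3 (0.949). The 24 libraries fall into states, so these values mainly describe the difference of M2 from the rest. Gm7457, Tctn1 and Ino80dos overlap an exon of an opposite-strand gene and Itgax and Slc13a3 do not. Slc13a3, a sodium-coupled dicarboxylate transporter, averaged 110.5 ± 61.0 CPM in Ltb4r2-/- M2 and 77.8 ± 21.4 in WT M2, against 0.0 in both M0 groups. Itgax, the integrin CD11c, averaged 54.1 ± 13.4 CPM in Ltb4r2-/- M2 against 0.764 ± 1.53 in M0, and 42.9 ± 18.3 CPM in WT M2 against 2.45 ± 3.76 in M0 (SD, n = 4).

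Itgax is also on a list of 11 dendritic cell markers, of which 3 were tested. In M2 over M0, Itgax and Xcr1 rose in Ltb4r2-/- cells and Itgax, Xcr1 and Clec9a in WT cells, where 16.9% of all genes rose in Ltb4r2-/- and 15.2% in WT cells. The summed level of the 11 was 144 to 205 CPM in Ltb4r2-/- M2 against 64.6 to 111 in M0, and 129 to 187 CPM in WT M2 against 35.3 to 59.5 in M0. In M1, where the IL-4 markers were scarce, it was 691 to 1085 CPM in Ltb4r2-/- and 493 to 841 CPM in WT cells, and Xcr1 alone averaged 873 and 667 CPM in Ltb4r2-/- and WT M1. Clec9a averaged 41.2 CPM in Ltb4r2-/- M2 against 47.3 in M0, and 45.7 CPM in WT M2 against 17.8 in M0. Batf3 averaged 18.9 CPM in Ltb4r2-/- M2 against 6.22 in M0, and 13.9 CPM in WT M2 against 2.80 in M0. Of the 11, 7 had 0 counts in Ltb4r2-/- M2 and 6 in WT M2, and Flt3, Zbtb46 and Cd209a had 0 counts in all 24 libraries. As said above, a count of 0 in this table may not measure a gene's own transcript. The part of such cells in the marker levels was not tested.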

How the data were processed

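RNA of mouse BMDMs was sequenced from strand-specific poly(A) libraries. The authors used cutadapt for trimming, STAR for alignment (mouse build mm10) and HTSeq for counting. Their deposited raw counts per gene, not normalized, were used. The deposited table of normalized values was not used. Genes were tested with edgeR 4.0.16 (R 4.3.3) by quasi-likelihood F tests with TMM scaling, filterByExpr (minimum count 10, total 15) and Benjamini-Hochberg adjustment over all genes, at a threshold of 0.05. M2, M1 and M0 and the genotype-by-state differences came from 1 fit of 24 libraries, and genotypes within a state from fits of 8. SE was taken as the size of the log2 fold change over the root of the F statistic. CPM uses TMM scaling. Single markers were compared by exact two-sided permutation over 70 arrangements. A group at 0 was set to a floor of 3 counts over the group, which covers counting error in that group only. The floor takes counts as independent of each other. Even values made up 69.0% of the markers' values of 1 to 20, so the floor may be too low and the bounds too high. The part of this in the bounds was not tested. The counts of the other group were taken as they stood. Without Ltb4r2-/- M0 replicate 3, the bounds in Ltb4r2-/- M2 over M0 were 69.5 for Mmp12, 18.7 for Chil3 and 12.8 for Egr2. Without WT M0 replicate 3, those in WT M2 over M0 were 41.7 for Retnla, 16.1 for Chil3 and 7.00 for Egr2. Exon lengths and overlaps came from GENCODE on GRCm38, with bedtools 2.31.1. Scripts were tested on simulated data.

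The markers, lists and tests were chosen with earlier results of these data known. All 9 markers are named; from each related list up to 4 genes that passed in M2 over M0, by smallest p, and the paralogs, IL-4 receptor genes and Stat6; and the 5 genes most like the markers. Cd274 and Il2rg in M1 and Slc13a3 are given under that rule, and Xcr1, Batf3, Il4i1, Atp6v0d2 and the macrophage identity genes were named once their values were known. The settings varied were RLE and total-count scaling, other filters, DESeq2 1.42.0, fewer or more libraries, a replicate block, leaving out each library, and, after seeing the data, halved counts.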

Additional observations from a re-analysis of the deposited data

How the results depend on the processing

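The markers had low counts. A filter on a mean of at least 50 counts left none of the markers to test, so 0 were called in M2 over M0, M2 over M1 and M1 over M0 in either genotype, and all genes called fell to 494 to 708, against 824 to 1612. Fits of the 8 libraries compared tested 3 markers in M2 over M0 and in M2 over M1, but 4 in WT M2 over M0. They called 3 in M2 over M0 and 3 in M2 over M1 in each genotype. In M1 over M0 they tested 0 markers and so called 0. Of all genes in M2 over M0, 452 of 2306 rose in Ltb4r2-/- and 384 of 2206 in WT cells. In M2 over M1, 637 of 2125 rose in Ltb4r2-/- and 629 of 2129 in WT cells. Even values outnumbered odd ones among low counts (59.2% of values of 1 to 20, against 50.1% of values over 100). Counts were therefore halved and rounded down after seeing the data, which left 3 markers to test. All 3 were called in M2 over M0 and over M1 in each genotype, and 0 in M1 over M0. Of 1965 genes, 428 rose in Ltb4r2-/- and 384 in WT M2 over M0. In M2 over M1, 661 rose in Ltb4r2-/- and 669 in WT cells. The fall of Mrc1 in M1 over M0 in Ltb4r2-/- cells was not a stable call: that comparison called 0 markers without a filter and by DESeq2, and 0 to 1 on leaving out 1 library. In WT cells, M1 over M0 called 2 markers with total-count scaling and 2 by DESeq2 (Pdcd1lg2 rose, adjusted p = 0.0372), and 1 to 2 on leaving out 1 library, the highest without WT M1 replicate 2, when Clec7a had a log2 fold change of -5.02. Total-count scaling moved the median of all genes in M1 over M0 to -0.60 in Ltb4r2-/- and -0.64 in WT cells. No called marker changed direction, and no marker was called between genotypes or for a difference in response under any alternative run. The genes called over all genes without a filter were 9 and 10 for the differences in response to IL-4 and to LPS with IFN-γ, against 1 each, and 7, 23 and 15 between genotypes in M2, M1 and M0, against 4, 1 and 3. Between genotypes, DESeq2 called 6 in M0, the filter on a mean of 50 counts 2 in M2, and the fit of 24 libraries 2 in M1. Leaving out WT M0 replicate 3 gave 4 and 2 genes for the differences in response to IL-4 and to LPS with IFN-γ and 8 between genotypes in M0. Leaving out WT M0 replicate 1 or WT M1 replicate 4 gave 3 or 2 for the difference in response to LPS with IFN-γ, and leaving out WT M1 replicate 1 gave 2 between genotypes in M1. The cause was not tested.

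Replicate numbers are shared between groups, but in no pair of groups were all 4 same-number correlations over 0.1 (range -0.17 to 0.11), so the numbers were not taken to pair the samples. In WT M1 against WT M0 each library correlated best with its own number, a hint of pairing. The column headings of the counts also set the number beside the genotype and ahead of the state, which may mark a shared donor. The main fits took the libraries as independent, and whether they shared donors was not tested. With a replicate block, M1 over M0 called 0 markers in Ltb4r2-/- cells, and M2 over M0 still called 6 in Ltb4r2-/- and 5 in WT cells. Of 3047 genes tested with that block, 508 rose in Ltb4r2-/- and 445 in WT M2 over M0.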
